A study of Homo sapiens with 13 samples.

Results

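Human chromosome 19 is known for its clusters of C2H2 zinc finger genes, and 240 genes named ZNF on it were examined for PTBP1 and RUNX1 binding. They were all the protein-coding genes of chromosome 19 in GENCODE version 44 whose symbol is ZNF followed only by digits, out of 20033 protein-coding genes. Of these genes, 131 lie on the plus strand and 109 on the minus strand. They were set beside the 1236 other protein-coding genes of chromosome 19 and the 236 ZNF genes of other chromosomes. The symbol and the position chose the genes and no peak value entered that rule, although earlier results of these data were known when it was set.

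The cells were MOLM-13, an established human acute myeloid leukemia line, grown without treatment as far as the labels say. PTBP1 regulates splicing by binding pyrimidine-rich RNA, and RUNX1 is a transcription factor of blood cells that recognises DNA through its Runt domain. Libraries were made by CUT&Tag and CUT&RUN, in which an antibody brings a transposase or a nuclease to the bound protein, and 13 were described, with PTBP1, RUNX1, H3K27me3 or IgG antibodies. PTBP1 and RUNX1 CUT&Tag, the 2 groups behind the lists used here, had 2 biological replicates each. The values here come from 1 PTBP1 list of 9370 peaks and 1 RUNX1 list of 7688 peaks on hg38, so differences between replicates cannot be seen, and the intervals printed reflect counting error alone. The peak lists could not serve as a check of the cell type: of 8 myeloid genes, ITGAM alone had a peak at its start (RUNX1, 11.3-fold), and the 6 genes of other cell types had none.

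A C2H2 zinc finger is a small fold, held together by a zinc ion between paired cysteines and histidines, that reads a few bases of DNA. Tandem duplication has placed these genes in clusters, and most of their proteins join an array of fingers, coded by a single last exon, to an N-terminal KRAB domain. The KRAB domain binds TRIM28, a corepressor that brings in SETDB1, a histone H3 lysine 9 methyltransferase, and heterochromatin protein 1. Many KRAB zinc finger proteins silence transposable elements, and the 3′ ends of the genes themselves are known to carry H3 lysine 9 trimethylation in many cell types. In the canonical transcripts, the 240 genes coded for 3004 fingers with a median of 12 per gene, from 1 in ZNF428 to 36 in ZNF208. The last exon held the start of 98.5% of these fingers. A stretch like the first part of the KRAB domain was found in 202 genes and not in 38. The stretch was sought by 2 residue patterns in the canonical transcript, so a truncated or divergent domain can be missed.

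The sequences under the summits that recur in the results are shown first, on the strand of the gene and on hg38. In the first set, 4 RUNX1 summits at gene starts held the letters TGTGGT or TGCGGT, the core that the Runt domain recognises, on one strand or the other, and these are in capitals. They are the strongest RUNX1 peaks at a start with these letters, except that a window was taken only where no more than 30 of its bases lay in an untranslated region.
ZNF787, chr19:56121370-56121470, minus strand: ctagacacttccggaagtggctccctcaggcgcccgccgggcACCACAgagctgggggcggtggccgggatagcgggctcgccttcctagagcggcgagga
ZNF564, chr19:12551614-12551714, minus strand: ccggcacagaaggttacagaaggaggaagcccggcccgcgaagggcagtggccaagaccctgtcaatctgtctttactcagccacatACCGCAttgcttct
ZNF181, chr19:34734080-34734180, plus strand: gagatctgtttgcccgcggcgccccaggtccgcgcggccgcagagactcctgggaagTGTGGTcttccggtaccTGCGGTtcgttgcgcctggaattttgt
ZNF83, chr19:52690566-52690666, minus strand: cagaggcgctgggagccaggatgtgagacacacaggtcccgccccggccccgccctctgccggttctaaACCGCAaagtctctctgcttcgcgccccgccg

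The next 3 windows show PTBP1 summits inside the coding part of a last exon, where the finger arrays lie. Capitals mark the codons of C2H2 fingers within 50 bases of the summit, and the ZNF628 window has none.
ZNF865, chr19:55614877-55614977, plus strand: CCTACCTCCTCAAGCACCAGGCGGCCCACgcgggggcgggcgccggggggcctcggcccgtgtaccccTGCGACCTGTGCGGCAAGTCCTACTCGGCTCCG
ZNF837, chr19:58368347-58368447, minus strand: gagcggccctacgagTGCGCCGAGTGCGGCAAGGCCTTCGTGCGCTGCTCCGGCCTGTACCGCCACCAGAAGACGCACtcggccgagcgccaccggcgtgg
ZNF628, chr19:55482095-55482195, plus strand: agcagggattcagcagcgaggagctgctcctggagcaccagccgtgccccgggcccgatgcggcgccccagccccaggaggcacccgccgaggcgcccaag

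To determine how often the 2 proteins were found at the starts of these genes, peaks within 1000 bases of the 5′ end of each gene, here called the TSS, were counted. PTBP1 was present at 55 of the 240 TSSs (22.9%, 95% Wilson interval 18.1 to 28.6). The share of all protein-coding genes was 26.4%. RUNX1 was present at 33 TSSs (13.8%, interval 9.96 to 18.7), beside 21.3% of all protein-coding genes. Both were present at 29 TSSs (12.1%, interval 8.55 to 16.8), beside 17.3% of all protein-coding genes. The PTBP1 interval held the share of all genes, and the RUNX1 and joint intervals lay below theirs. This separation depended on the definition of the start. At the start of the canonical transcript the RUNX1 interval (12.8 to 22.4) reached the 22.4% of all genes and the joint interval (11.4 to 20.5) held their 18.2%. At the 153 genes with no other gene start within 1000 bases, the RUNX1 interval (7.05 to 17.1) held the 15% of all such genes and the joint interval (6.03 to 15.5) held their 11.8%. Another 26 genes had PTBP1 alone, 4 had RUNX1 alone and 181 had neither. Over all 20033 protein-coding genes these counts were 1812, 797 and 13955.

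The shares were lower than in both sets of genes used for comparison. Other chromosome 19 genes had PTBP1 at 40.1% of TSSs and RUNX1 at 26.5%. Among ZNF genes of other chromosomes the shares were 33.1% and 30.9%. The intervals of the chromosome 19 ZNF genes did not reach the values of other chromosome 19 genes for either protein. These shares are descriptions of 2 peak lists, since neighbouring and duplicated genes are not independent and no test was run on them.

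**Figure D1:**
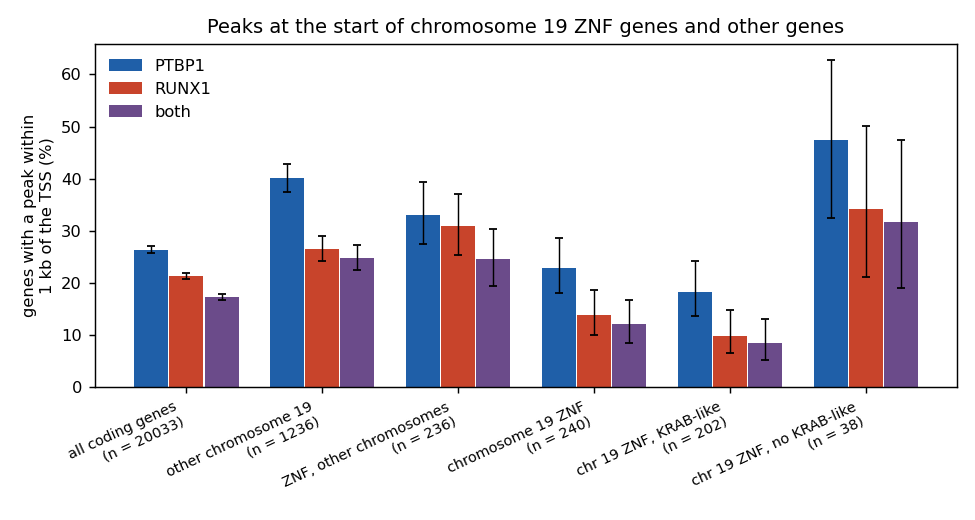
Share of genes with a PTBP1 peak, a RUNX1 peak or both within 1 kb of the TSS (y axis, percent) in 6 groups of genes (x axis), with 95% Wilson intervals as error bars. The 240 chromosome 19 ZNF genes had PTBP1 at 22.9% and RUNX1 at 13.8% of starts, and those without a KRAB-like stretch stood above those with one.

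Where PTBP1 was present, RUNX1 often was too. RUNX1 had a peak at 52.7% of the 55 ZNF genes with PTBP1 at the TSS (interval 39.8 to 65.3). Of the 185 without PTBP1, 2.16% had one. For all protein-coding genes these shares were 65.7% and 5.40%. The interval lay just below the 65.7% and held the 61.9% of other chromosome 19 genes with PTBP1. Among ZNF genes of other chromosomes with PTBP1 the share was 74.4%. Seen from RUNX1, 87.9% of the 33 starts (interval 72.7 to 95.2) also had PTBP1. That interval held the 81.3% of all protein-coding genes and the 93.6% of other chromosome 19 genes. The peaks overlapped at 28 of the 29 starts with both. Their summits lay a median of 62.5 bases apart, with 10 pairs at most 50 bases apart and a largest distance of 509 bases. Both peaks had to lie within 1000 bases of the same TSS, which brings them close by choice. Overlap and distance were not computed for all coding starts with both, so these values are not read as high or low. At ZNF787 and ZNF837 both summits fell on the same base. ZNF93, a KRAB protein known to repress LINE-1 elements, was the exception without overlap, with its PTBP1 summit at 82 and its RUNX1 summit at -559 bases from the TSS, where negative positions are upstream.

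Fold enrichment in each list is the fragment pileup at the summit over the local background, each with 1 added, and it is comparable within a list only. The strongest PTBP1 peak at these starts was at ZNF524, whose product is known to bind telomeric DNA, with a fold enrichment of 59.3 from 101 fragments. ZNF787 followed with 53.5 from 91 fragments and ZNF837 with 52.3 from 89. These summits lay at -692 bases from the TSS in ZNF524, at -125 in ZNF787 and at 2 in ZNF837. ZNF865 had 45.3, ZNF558 and ZNF584 40.7, ZNF497 40.1, ZNF576 38.9, ZNF414 36.0 and ZNF296 35.5. All 10 of these starts also carried RUNX1, and 8 of the 10 genes had no KRAB-like stretch. The exceptions were ZNF558 and ZNF584. How often the strongest PTBP1 starts of all coding genes also carry RUNX1 was not counted.

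The strongest RUNX1 peak at a start was at ZNF497, with a fold enrichment of 39.1 from 51 fragments at a summit 209 bases downstream of the TSS. ZNF558 had 36.1 from 47 fragments, and its RUNX1 and PTBP1 summits lay 1 base apart, at -422 and -423. ZNF787 had 33.1, ZNF414 32.3 and ZNF837 30.1. ZNF181 and ZNF564 both had 27.1 from 35 fragments, ZNF333 had 23.3, ZNF296 22.6 and ZNF524 20.3. Of these 10 genes, 7 were also among the 10 strongest in the PTBP1 list. ZNF181, ZNF564 and ZNF333 were the others, with PTBP1 fold enrichments of 12.2, 11.6 and 20.9.

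These peaks were not unusually strong for the lists they came from. The median fold enrichment of the strongest PTBP1 peak was 14 over the 55 starts (range 6.98 to 59.3), beside 15.7 over all coding genes with a PTBP1 peak and 20.3 over other chromosome 19 genes. For RUNX1 the median was 14.3 (range 7.52 to 39.1), beside 15.8 and 19.9. Starts with both proteins had a median PTBP1 fold enrichment of 25.6, and starts with PTBP1 alone had 11.6. The 4 starts with RUNX1 alone were those of ZNF83 (12.8), ZNF799 (11.3), ZNF649 (8.27) and ZNF160 (7.52), with a median of 9.77. These 4 were named after their values were seen.

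**Figure D2:**
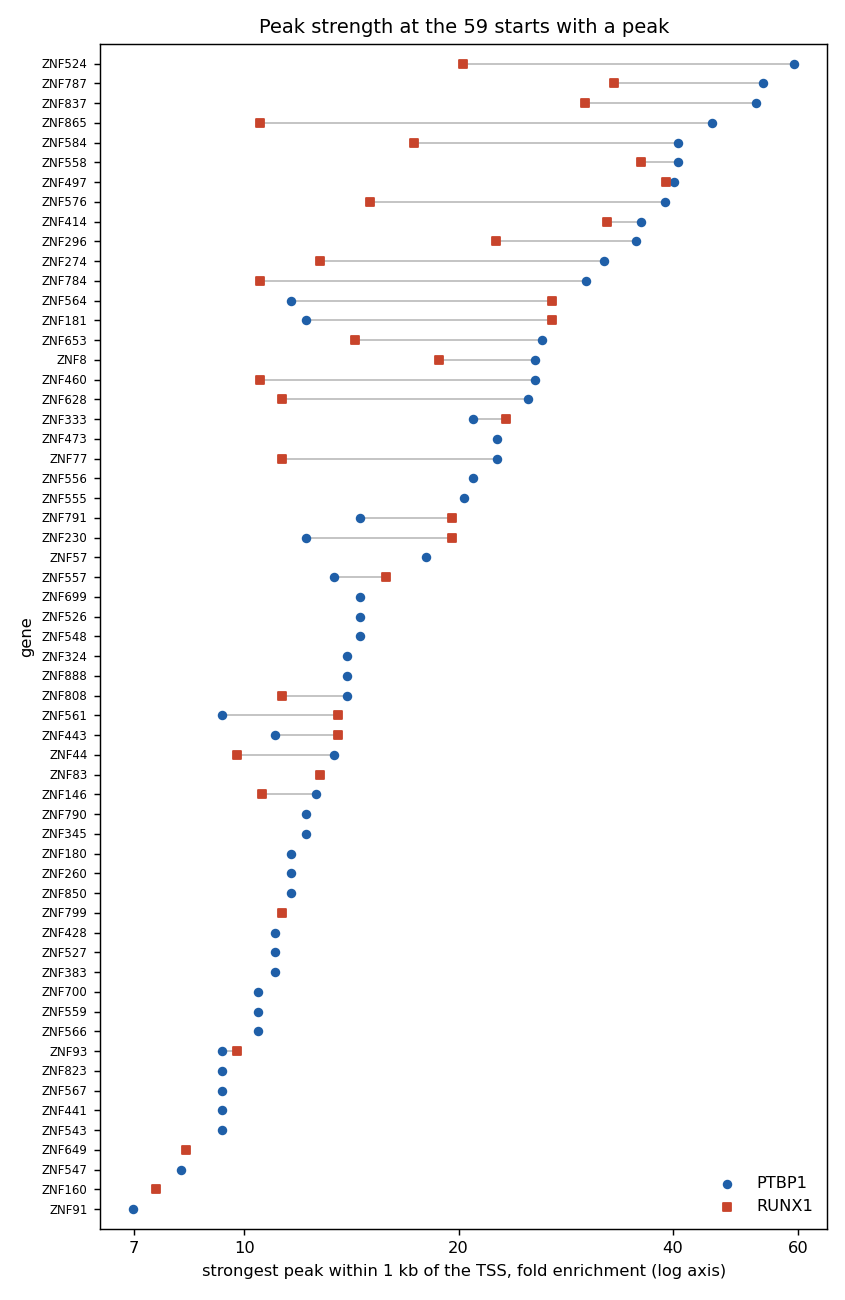
Fold enrichment of the strongest PTBP1 peak (circles) and RUNX1 peak (squares) within 1 kb of the TSS on a log axis, for each of the 59 chromosome 19 ZNF genes with at least 1 such peak. Grey lines join the 2 lists at the 29 starts with both, the strongest starts are all joined, and fold enrichments ran from 6.98 at ZNF91 to 59.3 at ZNF524.

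Another 5 genes were followed whatever their values. ZNF274, known to bind the 3′ ends of zinc finger genes and to recruit SETDB1 to them, had both proteins at its own TSS, PTBP1 at 32.0-fold from 54 fragments and RUNX1 at 12.8-fold from 16 fragments. ZNF93 had 9.30-fold PTBP1 from 15 fragments and 9.77-fold RUNX1 from 12. ZNF91, which represses SVA and LINE-1 elements, had a PTBP1 peak of 6.98-fold from 11 fragments, as few as in any PTBP1 peak of the list, and no RUNX1 peak. ZNF224, a KRAB repressor, and ZNF331, a KRAB gene known to be imprinted, had no peak of either protein at the TSS or in the gene.

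The share of genes with a peak differed with the KRAB-like stretch. Of the 202 genes with it, 37 had PTBP1 at the TSS (18.3%, interval 13.6 to 24.2) and 20 had RUNX1 (9.90%, interval 6.5 to 14.8). Of the 38 without it, 18 had PTBP1 (47.4%, interval 32.5 to 62.7) and 13 had RUNX1 (34.2%, interval 21.2 to 50.1). The intervals of the 2 sets did not overlap for either protein. Where PTBP1 was present, its median fold enrichment was 12.2 with the stretch and 28.2 without. For RUNX1 the medians were 13.5 and 15.0. ZNF genes of other chromosomes had PTBP1 at 26.5% of 102 starts with the stretch and 38.1% of 134 without, and RUNX1 at 18.6% and 40.3%. There the PTBP1 intervals (18.9 to 35.8 and 30.3 to 46.5) overlapped, and the RUNX1 intervals (12.3 to 27.3 and 32.4 to 48.8) did not. Their median PTBP1 fold enrichments were closer, at 12.2 with the stretch and 15.7 without.

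CpG content at the TSS moved with the peaks as well. It was measured as the observed over the expected number of CpG dinucleotides within 500 bases of the TSS. Its median was 0.735 at the 59 starts with a peak of either protein and 0.663 at the 181 with neither. In the tertile of genes with the lowest values (0.0933 to 0.615), 10 of 80 had PTBP1 and 2 of 80 had RUNX1. In the highest tertile (0.735 to 0.985), 27 of 80 had PTBP1 (33.8%) and 18 had RUNX1 (22.5%). Other chromosome 19 genes within that highest range, or above it, had PTBP1 at 68.3% and RUNX1 at 48.4% of 401 starts. In the middle range they had 54.1% and 34.7% of 242, beside 22.5% and 16.2% of the ZNF genes. The PTBP1 shares were close in the lowest range, or below it, at 15.3% of 593 other genes and 12.5% of the ZNF genes. For RUNX1 they were 8.43% and 2.5%.

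Within tertiles of CpG content the difference by KRAB-like stretch was seen at the upper end. In the highest tertile, 13 of 16 genes without the stretch had PTBP1 (81.2%, interval 57.0 to 93.4), and 14 of 64 with it did (21.9%, interval 13.5 to 33.4). RUNX1 was present at 9 of 16 (56.2%, interval 33.2 to 76.9) and 9 of 64 (14.1%, interval 7.58 to 24.6). In the lowest tertile, PTBP1 was present at 1 of 12 and 9 of 68. The middle tertile had intervals that overlapped, with 4 of 10 and 14 of 70 for PTBP1.

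**Figure D3:**
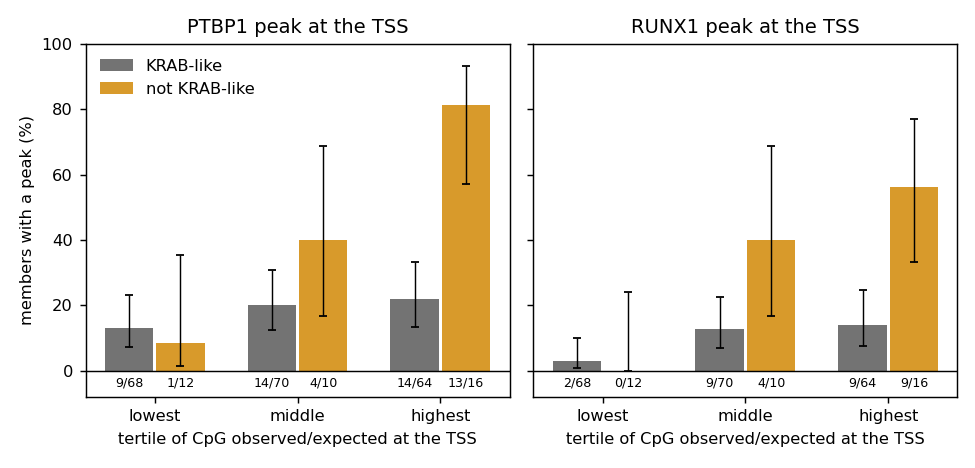
Share of chromosome 19 ZNF genes with a PTBP1 peak (left) or a RUNX1 peak (right) within 1 kb of the TSS (y axis, percent), by tertile of CpG observed over expected at the TSS (x axis) and by presence of a KRAB-like stretch. Bars carry 95% Wilson intervals and the counts behind them, and in the highest tertile 13 of 16 genes without the stretch had PTBP1 against 14 of 64 with it.

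Joining genes less than 500000 bases apart gave 20 clusters along the chromosome, of which 10 held at least 5 of the genes and together 228 of the 240. The clusters differed in how many of their starts had a peak. In the largest by span, from ZNF101 to ZNF254 (19668796 to 24129968), only ZNF93 and ZNF91 of 37 genes had one. Its 4.46 Mb held 3 PTBP1 and 2 RUNX1 peaks, which is 0.672 and 0.448 per Mb beside 18.2 and 9.84 per Mb over chromosome 19. The median CpG ratio of its starts was 0.536, the lowest of the 10 clusters.

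The cluster from ZNF175 to ZNF331 (51571283 to 53580269) also had few peaks, at 5 of 39 starts. It held 3 of the 4 genes with RUNX1 alone, ZNF649, ZNF83 and ZNF160, 1 with both, ZNF808, and 1 with PTBP1 alone, ZNF888. In the cluster from ZNF565 to ZNF573 (36182276 to 37817300), 8 of 24 starts had PTBP1 alone and 1 had both. That single one was ZNF146, where PTBP1 (12.6-fold) and RUNX1 (10.6-fold) rest on a raised local background. The most telomeric cluster, from ZNF264 to ZNF446 (57191500 to 58481230), had both proteins at 6 and PTBP1 alone at 4 of 41 starts. In the cluster from ZNF628 to ZNF835 (55476617 to 56671783), 5 of 16 starts had a peak and all 5 had both proteins. The first cluster, from ZNF554 to ZNF77 (2819868 to 2944971), was small but had a peak at 4 of 5 starts.

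**Figure D4:**
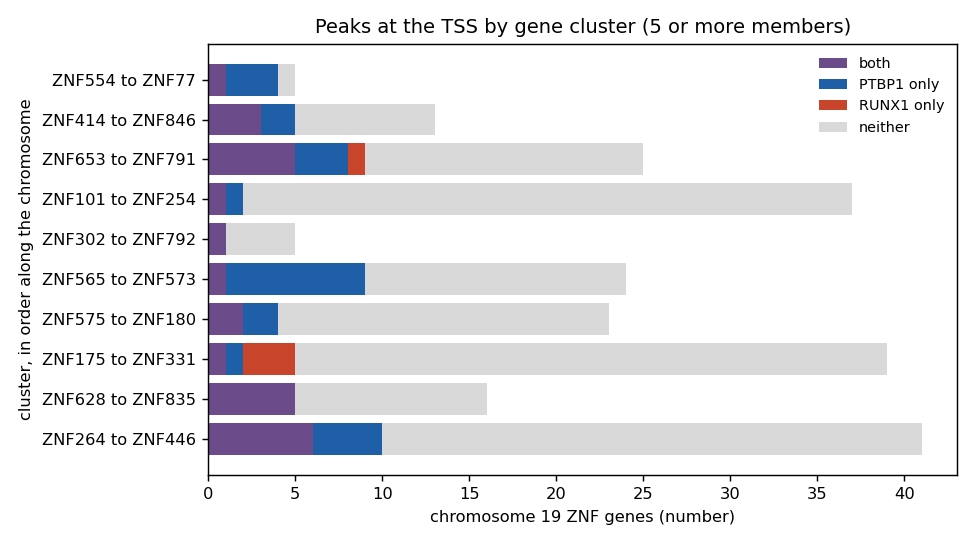
Number of chromosome 19 ZNF genes (x axis) in each of the 10 clusters of 5 or more (y axis, in order along the chromosome and named by their first and last gene), coloured by the peaks within 1 kb of the TSS. The cluster from ZNF101 to ZNF254 had a peak at 2 of 37 starts, and the cluster from ZNF554 to ZNF77 at 4 of 5.

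Other protein-coding genes that start inside these 10 clusters had similarly low shares. Of 116 such genes, 21.6% had PTBP1 and 9.48% had RUNX1 at the TSS. These are all coding genes outside the symbol rule, so they include other zinc finger genes and readthrough genes. One is ZNF559-ZNF177, which starts near ZNF559, so some peaks are counted in both sets. Shares without such genes were not computed. Of the 1120 other chromosome 19 genes outside them, 42.1% had PTBP1 and 28.3% had RUNX1.

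Many ZNF starts lie close to the start of another gene, and a peak between a pair of starts cannot be assigned to either. Another annotated gene started within 1000 bases of 87 of the 240 TSSs (36.2%), beside 31.3% of all protein-coding genes. PTBP1 was present at 32.2% of these 87 and at 17.6% of the 153 with no other start. For other chromosome 19 genes these shares were higher, at 61.3% and 29.8%. Among all protein-coding genes with no other start, 19% had PTBP1 and 15% had RUNX1. The corresponding RUNX1 share of the ZNF genes was 11.1%. Of the strongest starts named above, peaks at ZNF497, ZNF558, ZNF181, ZNF564, ZNF333 and ZNF576 came within 1000 bases of another gene's start. So did the PTBP1 peak at the TSS of ZNF584. One PTBP1 peak lay within 1000 bases of the TSSs of both ZNF345 and ZNF790, so 55 peaks served the 55 genes although ZNF865 had 2.

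Because peaks were taken within 1000 bases of the TSS, their closeness to it follows from the choice. The median distance of the summit was 165 bases for PTBP1 and 171 for RUNX1, beside 187 and 191 at all coding starts, with 28 of 56 PTBP1 and 18 of 33 RUNX1 summits upstream. The RUNX letters shown above, TGTGGT or TGCGGT on either strand, lay within 50 bases of 8 of 33 RUNX1 summits (24.2%, interval 12.8 to 41.0). Over all RUNX1 peaks at coding starts the share was 13.0%, which lies inside that interval, and over the whole RUNX1 list it was 24.2%. Among PTBP1 summits at ZNF starts 5 of 55 held them (9.09%, interval 3.95 to 19.6), beside 6.90% at all coding starts. At ZNF787 the letters lie near the base that is the summit of both lists. ZNF181 holds them as TGTGGT and as TGCGGT within the window shown, with its RUNX1 summit at -25 bases from the TSS. The other RUNX1 summits with them, chosen after their values were seen, were at ZNF443, ZNF799, ZNF93 and ZNF649.

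RefSeq promoters of 300 bases (GRCh38.p14) gave a count that did not depend on the summits. By symbol, 210 of the 240 genes matched, with 261 promoters. The letters were present in 52 of the 261 (19.9%), beside 19.6% of all 35116 promoters in the table. They were present in 13 of 38 promoters of genes with RUNX1 at the TSS (34.2%, interval 21.2 to 50.1) and in 39 of 223 of the others (17.5%, interval 13.1 to 23), and these intervals overlap.

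Peaks elsewhere in the gene, that is overlapping the gene but not within 1000 bases of its TSS, were counted next. PTBP1 had such a peak in 20 of the 240 genes (8.33%, interval 5.46 to 12.5), beside 12.4% of all protein-coding genes. RUNX1 had one in 14 (5.83%, interval 3.51 to 9.55), beside 11.5% of all protein-coding genes. Because long genes have more room for peaks, densities were compared too. The ZNF genes held 2.83 PTBP1 and 1.89 RUNX1 peaks per Mb of gene, beside the 2.89 and 2.13 of all coding genes, whereas other chromosome 19 genes held 19.8 and 8.70. The 202 ZNF genes with the KRAB-like stretch held 1.45 PTBP1 and 1.45 RUNX1 peaks per Mb, and the 38 without it 9.79 and 4.08.

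Most of these gene-body peaks lay at another start of the same gene. Of 22 pairs of a gene and a PTBP1 peak, 17 (77.3%, interval 56.6 to 89.9) came within 1000 bases of the start of an annotated transcript of that gene, and 13 of 15 RUNX1 pairs did (86.7%, interval 62.1 to 96.3). Among all coding genes these shares were 44.6% and 35.9%. Among ZNF genes of other chromosomes they were 57.9% (interval 42.2 to 72.1) and 45.5% (interval 26.9 to 65.3). Those intervals overlap the ones of the chromosome 19 ZNF genes. The TSS used here is the 5′ end of the whole gene, and in 44 of the 240 genes the canonical transcript starts over 1000 bases away from it. Counted at canonical starts, PTBP1 was present at 64 (26.7%) and RUNX1 at 41 (17.1%) of the 240 genes, beside 27.5% and 22.4% of all protein-coding genes.

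ZNF627 (11559374 to 11619161, plus strand) gave the strongest RUNX1 peak of any of the 240 genes. Its fold enrichment was 63.9 from 84 fragments, at a summit 38130 bases from the 5′ end of the gene and 21 bases from the start of its canonical transcript, in the untranslated part of exon 1. PTBP1 was present there at 16.3-fold from 27 fragments. The window within 1000 bases of the gene's 5′ end had no peak, so by the TSS rule ZNF627 counted among the 181 genes with neither protein. ZNF574 gave the strongest PTBP1 peak of this kind, at 46.5-fold from 79 fragments, 140 bases from its canonical start, with RUNX1 at 13.5-fold and summits 1 base apart.

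ZNF444, a SCAN domain gene, and ZNF446 both had PTBP1 at 30.2-fold from 51 fragments. Their RUNX1 peaks were 11.3-fold and 18.8-fold. ZNF846 had PTBP1 at 20.3-fold, 83 bases from a transcript start that is not the canonical one. ZNF584 had 4 peaks in all, both proteins at the TSS and both again at its canonical start, where RUNX1 reached 31.6-fold and PTBP1 19.8-fold, against 17.3-fold and 40.7-fold at the TSS. The order of the 2 starts was thus opposite in the 2 lists. ZNF114 had PTBP1 at 13.95-fold, and ZNF432 had RUNX1 at 12.8-fold with the RUNX letters.

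ZNF490 and ZNF791 overlap on opposite strands and share their peaks. PTBP1 at 14.5-fold and RUNX1 at 19.5-fold lay at the TSS of ZNF791, which is also next to the canonical start of ZNF490. A second RUNX1 peak of 29.3-fold from 38 fragments, at 12612859 to 12614211, lay in intron 1 of ZNF791 and had no PTBP1 peak overlapping it. It was the sole RUNX1 peak in the body of these genes that was away from the annotated starts of these genes. In the same way the peaks within ZNF565 were those at the TSS of ZNF146. The peaks of ZNF575 also rest on a raised background, at 4.90-fold and 5.92-fold.

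**Figure D5:**
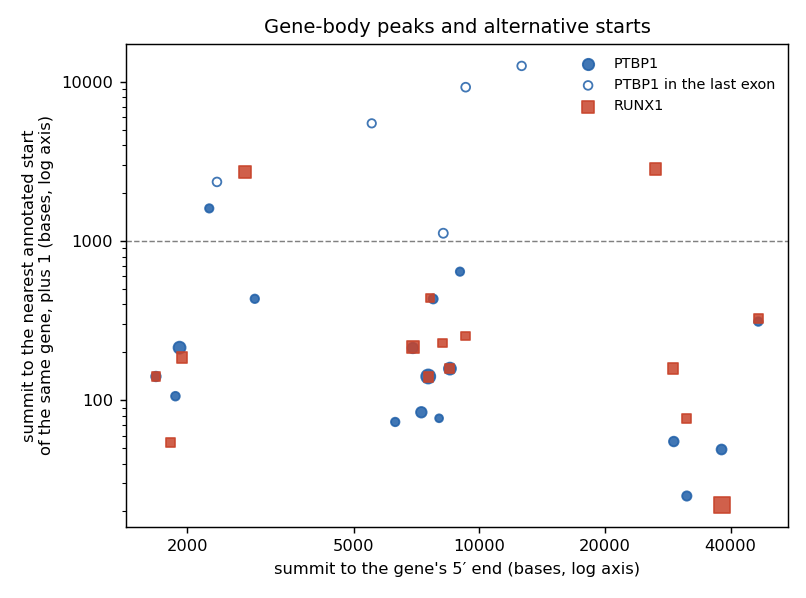
Each PTBP1 (circle) or RUNX1 (square) peak in the body of a chromosome 19 ZNF gene, by the distance of its summit from the 5′ end of the gene (x axis, bases, log axis) and from the nearest annotated transcript start of the same gene (y axis, bases plus 1, log axis). Symbol area grows with fold enrichment, open circles are summits in the last exon, the dashed line is at 1000 bases, and most summits lie under it, among them the ZNF627 RUNX1 summit 21 bases from a start.

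The last exon holds the finger array. A PTBP1 summit fell in the last exon of the canonical transcript in 5 of 240 genes (2.08%, interval 0.893 to 4.78), beside 1.65% of all protein-coding genes. A RUNX1 summit fell there in 0 of 240 genes (interval 0 to 1.58), beside 0.709% of all protein-coding genes. Read against 3 counts instead, a share of 0 here allows up to 1.25%. Over the 240 genes, the PTBP1 and RUNX1 shares were thus near those of all genes. Other chromosome 19 genes had a PTBP1 summit there in 4.94% and a RUNX1 summit in 1.38%. The 5 genes with a PTBP1 summit were all among the 38 without the KRAB-like stretch (13.2%, interval 5.75 to 27.3). With the stretch, 0 of 202 genes had one (interval 0 to 1.87).

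The 5 genes were ZNF580 (11.0-fold from 18 fragments), ZNF865 (9.88-fold from 16), ZNF784 (9.30-fold from 15), ZNF837 (8.72-fold from 14) and ZNF628 (7.56-fold from 12). All 5 lay below the median PTBP1 fold enrichment at the TSS, and none overlapped a RUNX1 peak. The ZNF580 summit lay in the untranslated part of the exon and its peak came within 1000 bases of another transcript start of the gene. The same peak lies 432 bases from a transcript start of the overlapping gene ZNF581. In the other 4 genes the summit lay in coding sequence, as shown above for 3 of them, between 2355 and 12625 bases from the nearest transcript start. These 4 genes also had both proteins at the TSS.

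The 5 genes resembled each other in sequence. None had the KRAB-like stretch. Their last exons were rich in G and C, from 64.6% to 70.9%, and ranked between 1 and 12 among the 240, where the median was 40.7% and the highest value with a KRAB-like stretch was 56.6%. The 33 other genes without the stretch had a median of 54.1% and reached 70.3%. The G and C content was not computed for last exons with a PTBP1 summit outside the 240 genes. Whether it is particular to these 5 was therefore not tested. Of the 5, 4 start within the same cluster, from ZNF628 to ZNF835. The authors kept reads of high mapping quality only, and the part of sequence repeats in these counts was not tested. The share of 100-base stretches that occur once in hg38 had a median of 100% over the last exons, and the lowest was 58.4%, at ZNF98. Over the TSS windows the lowest was 84.3%, at ZNF419.

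The genes with most peaks were ZNF414, ZNF584 and ZNF865. ZNF414 had 5, with both proteins at the TSS in intron 1, both again in intron 4 (PTBP1 9.30-fold and RUNX1 9.02-fold) and a PTBP1 peak in intron 6 (8.14-fold). All lay within 1000 bases of a transcript start of the gene. ZNF584 and ZNF865 had 4 each. ZNF865 had a second PTBP1 peak 799 bases downstream of the TSS (7.56-fold) beside that in the last exon, and its RUNX1 peak was at 10.5-fold. In all, 73 of the 240 genes had at least 1 peak and 167 had none. The same count was not made for all protein-coding genes, so it is not read as high or low.

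Finally, the starts of 21 genes whose products work with KRAB zinc finger proteins in silencing were examined. PTBP1 was at the TSS of 8 and RUNX1 at that of 8, with 6 genes in common, beside 26.4%, 21.3% and 17.3% of all protein-coding genes. The list is small, and no test was run on it. The 6 were CBX1, CBX3 and CBX5, which code for heterochromatin protein 1, CHD4, a chromatin remodeler of the NuRD complex, DAXX, a histone H3.3 chaperone, and SUV39H2, a histone methyltransferase. PTBP1 was strongest at CBX5 (77.3-fold) and CHD4 (70.9-fold), and RUNX1 at CHD4 (58.6-fold) and CBX3 (57.9-fold). HDAC1, a histone deacetylase, had PTBP1 alone at 15.1-fold and MORC2, which works with the HUSH complex, had 16.9-fold. SETDB1 had RUNX1 alone at 19.4-fold and PPHLN1, a HUSH subunit, had 12.8-fold. TRIM28, the protein that KRAB domains bind, was among the 11 with neither.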

How the data were processed

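Peak lists for PTBP1 and RUNX1 in MOLM-13 cells were used, and each list was taken as CUT&Tag from the study's methods, since the lists name a target but no assay or replicate. The authors mapped paired reads to hg38 with Bowtie2, kept those with a mapping quality over 30, removed duplicates and ran MACS3 with a q-value threshold of 1e-07. Whether replicates were pooled is not given in the sources used here. The deposited ratio is the fold enrichment at the summit. The deposited −log10 p-value and −log10 q-value come from a Poisson model, and the deposited score is that −log10 q-value times 10, without its decimals. The summit offset is the last deposited column.

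Fragments at the summit and the background were solved from the fold enrichment and −log10 p-value (largest difference 0.00134). The usual background was 0.72 for PTBP1 and 0.33 for RUNX1, and above 1.5 times this it was called raised. The fewest fragments at a peak were 11 and 8, and weaker sites are not in the lists. Library totals were not used here.

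Genes, exons and UTRs came from GENCODE version 44, at the canonical transcript unless stated. Shares carry 95% Wilson intervals, which cover counting error only. A share of 0 was read against 3 counts. No test was run, as there is 1 list per target. The genes and the gene lists were chosen with earlier results of these data known. Named genes were the 10 strongest at the TSS and 8 strongest in the gene body in each list, those with a last-exon summit, the 3 with most peaks, ZNF274, ZNF91, ZNF93, ZNF224 and ZNF331, and the silencing genes. Others are named where a small count refers to them, after their values were seen. The pattern for the KRAB-like stretch was widened after an earlier form of it missed ZNF224. Counting was tested on simulated data. Versions were matplotlib 3.10.9, scipy 1.17.1, pandas 2.3.3, numpy 2.4.6 and Python 3.11.15.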

Additional observations from a re-analysis of the deposited data

How the results depend on the processing

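The 7 counts were recomputed in 52 alternatives, of which 45 stayed within 1.5 times the reported count. Restricted to genes with no other gene start within 1000 bases, the TSS counts were 27 for PTBP1, 17 for RUNX1 and 15 for both, of 153 genes. Gene-body counts fell to 13 for PTBP1 and 8 for RUNX1 when peaks within 1000 bases of any other gene's start were left out. They fell to 5 and 2 when peaks within 1000 bases of any annotated transcript start of the same gene were left out, an alternative added after seeing the data. These alternatives admit fewer genes or peaks by construction. Peaks with a −log10 q of at least 10, a distance of 500 bases, summits within 1000 bases, the usual background, canonical or any transcript starts, a wider list of 266 genes and other definitions of the last exon kept every count within that range. The RUNX1 and joint TSS intervals no longer lay below the share of all genes at canonical starts or without other gene starts nearby, nor did the joint interval at any annotated start (12.1 to 21.4, beside 20.3%). No paired analysis was possible because the peak lists carry no replicate, and for the same reason no replicate could be left out. The lists hold peaks past the threshold only, so a gene without a peak may still be bound more weakly.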
